A study of Mus musculus with 80 samples.

Results

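The genes described here encode the machinery that copies DNA in S phase of the cell cycle. They were chosen by name: 44 genes for origin licensing, helicase activation, the sliding clamp and its loader, the replicative polymerases and primase, lagging-strand processing, single-strand binding, nucleotide supply, uracil removal and chromatin assembly behind the fork. All 44 had a row among the 22103 rows of the deposited table. Of these, 43 passed the filter on low counts and were tested; Orc1, a subunit of the origin recognition complex, did not pass. Cdc6 passed only through the mice given the 2 highest doses, so it could enter the test only by being higher there.

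Before S phase, the origin recognition complex, Cdc6 and Cdt1 load rings of MCM proteins onto DNA, which is called licensing. Cdc45 and the GINS proteins then turn each ring into an active helicase, primase and polymerase alpha start each strand, the clamp loader RFC puts the PCNA ring on the primer, and polymerases delta and epsilon extend it. Hepatocytes of an adult liver are mostly out of the cell cycle, and many S phase genes are known to be driven by E2F transcription factors and to be low in resting cells.

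Livers came from female Balb-C mice aged 10 to 12 weeks that were dosed by gavage once daily for 7 days, with 4 individual mice in each of 5 groups. Mice of 4 groups received PFESA-BP2, a perfluorinated alkyl substance also called Nafion byproduct 2, with the dose running from 0.03 over 0.3 and 3.0 to 6.0 mg/kg-day. Control mice received vehicle only, named as DMSO in the sample titles and as deionized water in the treatment text. RNA of whole liver tissue was sequenced, so fewer cells of a type and less RNA per cell cannot be told apart.

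The 20 libraries held 13086779 to 21467012 expected counts. Hepatocyte markers were abundant in every library, with 83984 to 183317 CPM (counts scaled to a common library size) summed over the 8 markers listed. One library in each group (mice 3, 11, 15, 19 and 23) stood apart from the rest of its group on the first within-group component. In those 5 libraries, 14 of 43 replication genes were called lower (32.6%) and 4 higher (9.30%), with a median log2 difference of -0.14, where 25.2% of all rows were called lower and 24.9% higher. The libraries were set apart by these same expression values, so these calls are a description and not a test. Without those 5 libraries, 32 replication genes rose at 6.0 mg/kg-day and 12 at 3.0 mg/kg-day, beside 28 and 13 with them. Over all rows, 2699 rose at 6.0 mg/kg-day and 602 at 3.0 mg/kg-day without those libraries, beside 1707 and 483 with them. Mouse 22, at 6.0 mg/kg-day, had the highest level of most replication genes and also far more T cell marker RNA than any other mouse, so counts at that dose are given with and without it.

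At 6.0 mg/kg-day, 28 of the 43 genes tested rose relative to control and 0 fell, where 11.2% of all 15197 rows tested rose and 11.2% fell (adjusted p under 0.05, edgeR quasi-likelihood test). The median log2 fold change over the 43 genes was 0.94, against -0.02 over all rows. Called and at least 2-fold higher were 19 of the 43 genes and 749 of all 15197 rows. In 28 genes every mouse at 6.0 mg/kg-day lay above every control mouse, as in 9.68% of all rows. At 3.0 mg/kg-day, 13 genes rose and 0 fell, where 3.18% of all rows rose and 1.43% fell, and the median was 0.59; every mouse lay above every control in 19 genes, as in 5.55% of all rows. All 4 doses were set against the same 4 control mice. At 0.3 mg/kg-day no gene of the list was called, where 0.138% of all rows rose and 0.151% fell, and the median was -0.01. An unadjusted p under 0.05 was found at that dose for 3 of the 43 genes (6.98%) and for 8.56% of all rows. Every mouse at 0.3 mg/kg-day lay above every control in 2 genes, Pcna and Pole, as in 3.71% of all rows. At 0.03 mg/kg-day none was called either, where 0% of all rows rose and 0% fell, and the median was -0.02; 0 genes and 3.72% of all rows had an unadjusted p under 0.05, and DESeq2 and limma-voom likewise called 0 at both doses. With Cdc6 set aside, 27 of 42 genes rose at 6.0 mg/kg-day and 12 of 42 at 3.0 mg/kg-day.

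**Figure D1:**
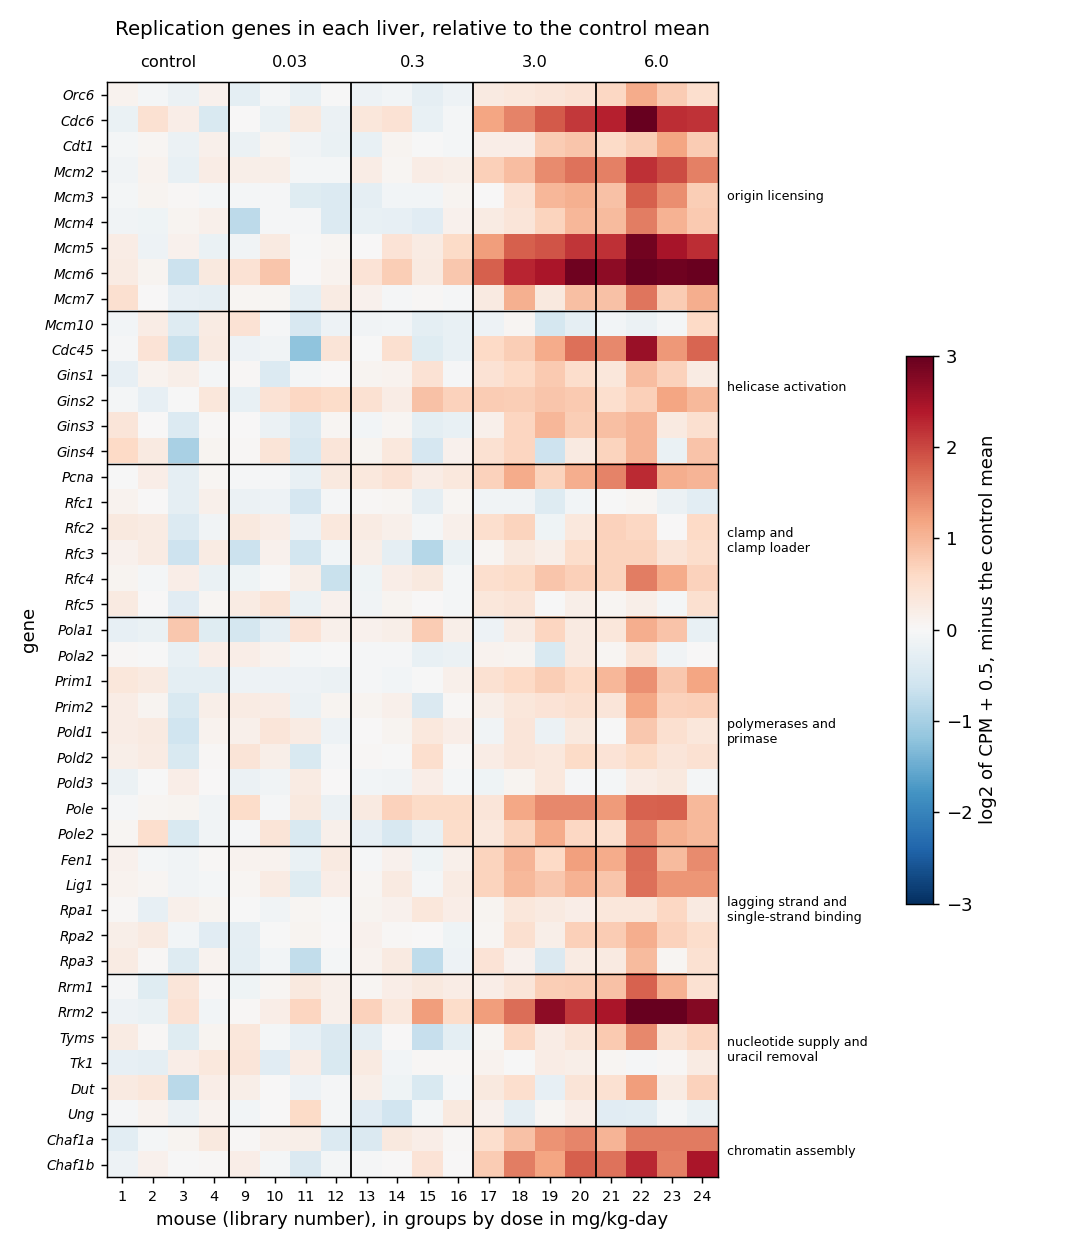
Each row is 1 of the 43 tested replication genes, grouped by role, and each column is 1 mouse, grouped by dose in mg/kg-day; colour gives log2 of CPM + 0.5 minus the mean of that quantity in the 4 control mice. The 2 highest doses are red for most rows, mouse 22 is darkest at 6.0 mg/kg-day, and Mcm10, Rfc1, Pola2, Pold3, Tk1 and Ung stay pale in most mice at every dose.

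Counts by role at 6.0 mg/kg-day were uneven. All 9 tested licensing genes and both subunits of chromatin assembly factor 1 rose. So did 4 of 6 helicase activation genes, 4 of 5 genes for lagging-strand processing and single-strand binding, 4 of 9 polymerase and primase genes, 3 of 6 nucleotide and uracil genes, and 2 of 6 clamp and clamp loader genes. The median log2 fold change was 1.35 for licensing genes and 0.53 for the clamp and its loader. The differences between roles were not tested.

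The promoters of the 3 genes with the largest and the 2 with the smallest change at 6.0 mg/kg-day are shown because the genes that changed most and least belong to the same process. The sequences are RefSeq windows of build GRCm38.p6 that run from 250 bases before to 50 bases after the annotated start, 5′ to 3′ on the strand of the gene. Capitals mark matches, on either strand, to E2F-type letters (TTTCCCGC, TTTGGCGC, TTTGCCGC or TTTCGCGC) and to the CCAAT box (CCAAT).
Cdc6: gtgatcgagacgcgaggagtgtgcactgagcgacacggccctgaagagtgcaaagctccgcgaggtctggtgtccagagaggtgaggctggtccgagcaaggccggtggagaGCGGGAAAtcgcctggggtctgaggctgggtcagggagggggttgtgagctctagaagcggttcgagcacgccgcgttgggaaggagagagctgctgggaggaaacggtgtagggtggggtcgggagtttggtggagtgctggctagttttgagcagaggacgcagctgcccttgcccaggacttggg
Rrm2: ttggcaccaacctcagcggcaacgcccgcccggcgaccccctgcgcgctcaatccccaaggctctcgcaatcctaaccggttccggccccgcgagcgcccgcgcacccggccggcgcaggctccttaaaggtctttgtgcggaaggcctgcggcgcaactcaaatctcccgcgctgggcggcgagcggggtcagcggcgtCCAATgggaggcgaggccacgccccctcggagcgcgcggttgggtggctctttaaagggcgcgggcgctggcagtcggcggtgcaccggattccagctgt
Mcm6: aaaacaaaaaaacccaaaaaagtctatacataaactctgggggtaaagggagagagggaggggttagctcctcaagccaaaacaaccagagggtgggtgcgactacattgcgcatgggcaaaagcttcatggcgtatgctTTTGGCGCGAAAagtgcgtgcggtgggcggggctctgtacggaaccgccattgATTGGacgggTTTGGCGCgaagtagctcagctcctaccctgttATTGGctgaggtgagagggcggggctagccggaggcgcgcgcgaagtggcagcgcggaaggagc
Mcm10: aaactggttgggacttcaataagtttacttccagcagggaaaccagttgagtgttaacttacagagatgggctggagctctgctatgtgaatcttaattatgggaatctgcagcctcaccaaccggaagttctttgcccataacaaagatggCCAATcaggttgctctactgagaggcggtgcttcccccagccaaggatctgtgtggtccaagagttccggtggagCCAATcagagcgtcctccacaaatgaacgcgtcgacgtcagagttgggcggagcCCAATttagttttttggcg
Tk1: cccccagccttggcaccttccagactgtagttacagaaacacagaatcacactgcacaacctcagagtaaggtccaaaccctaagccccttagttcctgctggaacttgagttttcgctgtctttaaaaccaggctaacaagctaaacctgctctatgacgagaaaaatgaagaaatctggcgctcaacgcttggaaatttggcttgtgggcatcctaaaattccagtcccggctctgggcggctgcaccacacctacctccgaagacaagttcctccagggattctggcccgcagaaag

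The windows lie at chr11:98907901-98908200 on the plus strand for Cdc6, chr12:24708004-24708303 on the plus strand for Rrm2, chr1:128359656-128359955 on the minus strand for Mcm6, chr2:5012742-5013041 on the minus strand for Mcm10 and chr11:117825965-117826264 on the minus strand for Tk1. The Cdc6 window held 1 E2F-type match, on the opposite strand, that begins 138 bases before the start. The Mcm6 window held 3 such matches, at offsets -110, -106 and -47 from the start, the first 2 of which overlap on opposite strands, and 2 CCAAT boxes. In the Rrm2 window a single CCAAT box was found, at offset -50, and no E2F-type match to these letters. The Mcm10 window held 3 CCAAT boxes and no complete E2F-type match, and the Tk1 window held neither set of letters. The Mcm10 window ends in all but the last letter of TTTGGCGC, so a match across that edge would be missed. Of the 44 genes, 37 had a promoter entry, and 14 of those (37.8%) held E2F-type letters, against 704 of all 27025 genes with an entry (2.61%). Split by the result at 6.0 mg/kg-day, the letters were in 9 of 23 genes that rose and in 4 of 13 genes that were not called. CCAAT boxes were in 22 of the 37 genes (59.5%) and in 41.1% of all genes with an entry. These are matches of letters in one window per start, and binding was not measured.

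Among the licensing genes, Cdc6, the ATPase that helps load the MCM ring, had the largest change of all 43. It was at 2.98, 6.10, 2.71 and 2.59 CPM in the mice at 6.0 mg/kg-day, against 0.0987, 0.450, 0.298 and 0 CPM in control mice, and the groups did not overlap. The log2 fold change was 4.09 ± 0.55 (standard error, adjusted p = 1.77e-05, n = 4 mice each). The 4 mice at 3.0 mg/kg-day had 1.08, 1.42, 1.98 and 2.52 CPM, every one above the highest control, with a log2 fold change of 3.05 ± 0.57 (adjusted p = 0.00211). These levels rest on 48, 121, 46.6 and 47 expected counts at 6.0 mg/kg-day and on 2, 8, 4 and 0 in control mice, so the size of the change is less precise than for the abundant genes. Cdc6 could enter the test only by being higher at the 2 highest doses, so its fold changes, adjusted p and rank are a description.

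Mcm6, one of the subunits of the MCM helicase ring, was at 10.4, 19.6, 12.3 and 12.8 CPM at 6.0 mg/kg-day, against 1.53, 1.29, 0.596 and 1.60 CPM in control mice. Mice at 3.0 mg/kg-day had 5.39, 7.76, 8.85 and 12.3 CPM. All 8 mice of the 2 highest doses stood above all controls. The log2 fold change was 3.42 ± 0.31 at 6.0 mg/kg-day (adjusted p = 1.43e-07) and 2.74 ± 0.31 at 3.0 mg/kg-day (adjusted p = 9.67e-06).

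Mcm2, another subunit of that ring and a common marker of cells licensed to replicate, was at 10.1, 16.4, 13.8 and 10.1 CPM at 6.0 mg/kg-day, against 2.91, 3.49, 2.68 and 3.77 CPM in control mice. Its level at 3.0 mg/kg-day was 5.55, 6.46, 9.42 and 11.0 CPM. Again no dosed mouse of these groups overlapped the controls, and the log2 fold change was 1.97 ± 0.21 at 6.0 mg/kg-day (adjusted p = 9.17e-07) and 1.33 ± 0.21 at 3.0 mg/kg-day (adjusted p = 0.000367). Mcm5 rose at both doses too, while Mcm3, Mcm4 and Mcm7 rose at 6.0 mg/kg-day, by log2 fold changes of 1.35, 1.22 and 1.13. These 3 subunits at 3.0 mg/kg-day had log2 fold changes of 0.66 to 0.73 with adjusted p of 0.0911 to 0.118. Cdt1, the partner of Cdc6 in loading, had a log2 fold change of 0.90 ± 0.18 at 6.0 mg/kg-day (adjusted p = 0.00115).

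Orc6, a subunit of the origin recognition complex, had the smallest change of the licensing genes. Its level was 3.36, 4.94, 3.74 and 3.03 CPM at 6.0 mg/kg-day, against 2.17, 1.91, 1.71 and 2.23 CPM in control mice, without overlap, and the log2 fold change was 0.90 ± 0.17 (adjusted p = 0.000534). Exons of Orc6 overlap Vps35 on the opposite strand over 6.93% of their length. Orc1, the largest subunit of the same complex, was not tested. It had 0.435, 1.87, 0.749 and 0.165 CPM at 6.0 mg/kg-day, against 0.0987, 0.169, 0.0745 and 0.114 CPM in control mice, that is 7, 37.3, 13 and 3 expected counts against 2, 3, 1 and 2.

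**Figure D2:**
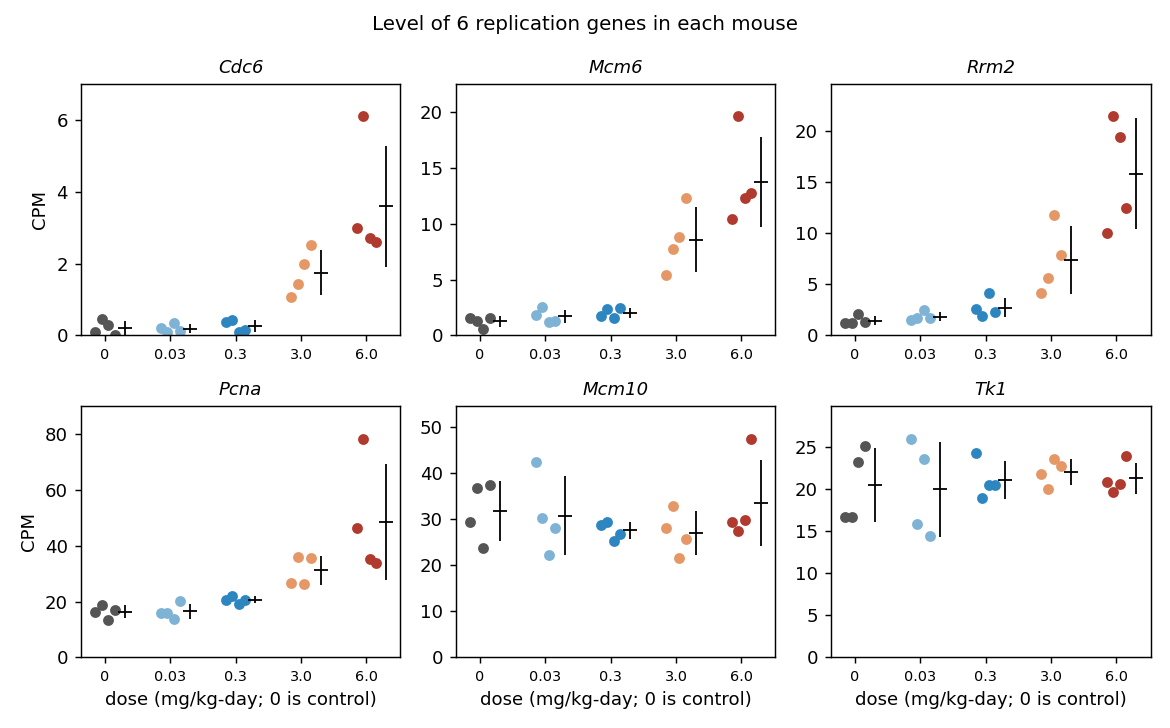
Level in CPM (vertical axis, linear from 0) of 6 replication genes in each mouse (points) by dose in mg/kg-day, with the mean and SD of the 4 mice of a group as a black bar. Cdc6, Mcm6, Rrm2 and Pcna lie above all controls in every mouse of the 2 highest doses, and Mcm10 and Tk1 overlap the controls at every dose.

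Of the helicase activation genes, Cdc45, which binds the MCM ring to complete the moving helicase, had the largest change. It was at 2.92, 7.16, 2.59 and 3.75 CPM at 6.0 mg/kg-day, against 0.741, 1.18, 0.298 and 1.03 CPM in control mice. The groups did not overlap, and the log2 fold change was 2.31 ± 0.50 (adjusted p = 0.00205). Mice at 3.0 mg/kg-day were at 1.40, 1.60, 2.24 and 3.47 CPM, also without overlap, with a log2 fold change of 1.39 ± 0.51 that did not pass the threshold (adjusted p = 0.159). Exons of Cdc45 share 5.96% of their length with Ufd1 on the opposite strand, and Ufd1 rose by 0.73 on the log2 scale.

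The GINS complex holds Cdc45 and the MCM ring together. Gins3 was at 1.87, 2.07, 1.04 and 1.27 CPM at 6.0 mg/kg-day, against 1.14, 0.787, 0.447 and 0.799 CPM in control mice. Mouse 23, at 1.04 CPM, lay below control mouse 1, so the groups overlapped, and the log2 fold change was 0.95 ± 0.31 (adjusted p = 0.0334). This call was lost when mouse 21, mouse 22 or control mouse 2, 3 or 4 was left out (log2 fold change of 0.77 to 0.94, adjusted p of 0.0663 to 0.128). Gins1 rose by 0.75 ± 0.23 (adjusted p = 0.0232), a call lost without mouse 22 or control mouse 1 or 4 (log2 fold change of 0.57 to 0.72, adjusted p of 0.0587 to 0.109). Gins2 rose at 6.0 mg/kg-day by 0.94 ± 0.21 (adjusted p = 0.00308) and at 3.0 mg/kg-day by 0.86 ± 0.21 (adjusted p = 0.0211). The call of Gins2 at 3.0 mg/kg-day was lost without control mouse 1, 2 or 3 or mouse 19 or 20 (adjusted p of 0.0506 to 0.0844). Its exons share 67.3% of their length with Gse1 on the opposite strand, and since the sources used here do not give the strand setting, reads of the pair cannot be told apart. Gse1 had a log2 fold change of -0.72 at 6.0 mg/kg-day (adjusted p = 0.208). Gins4 was not called, with 0.57 ± 0.33 (adjusted p = 0.237), but was called with a term for the 5 libraries that stand apart (0.59, adjusted p = 0.00344) and without those libraries (0.56, adjusted p = 0.0127). That term and that omission were derived from these same counts, so calls gained through them, here and below, are a description.

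Mcm10, which helps to activate the loaded ring, had the smallest change of this role. Its level was 29.4, 27.4, 29.8 and 47.4 CPM at 6.0 mg/kg-day, against 29.3, 36.8, 23.6 and 37.3 CPM in control mice. The groups overlapped, and the log2 fold change was 0.08 ± 0.20 (adjusted p = 0.821), a value that turned negative without mouse 24 or control mouse 3. Despite its name it is not a subunit of the MCM ring. Its log2 fold change at 3.0 mg/kg-day was -0.23 ± 0.20 (adjusted p = 0.706).

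Pcna, the ring that holds polymerases on DNA, had the highest level per exon length of all 44 genes in both groups. It was at 46.4, 78.3, 35.4 and 33.8 CPM at 6.0 mg/kg-day, against 16.3, 18.8, 13.5 and 17.1 CPM in control mice. Mice at 3.0 mg/kg-day had 26.7, 36.0, 26.3 and 35.4 CPM, and no mouse of either dose overlapped the controls. For Pcna the log2 fold change was 1.56 ± 0.21 at 6.0 mg/kg-day (adjusted p = 1.89e-05), 1.23 without mouse 22, and 0.92 ± 0.21 at 3.0 mg/kg-day (adjusted p = 0.0112). At 0.3 mg/kg-day Pcna was at 20.6, 22.1, 19.1 and 20.6 CPM, also above every control, but was not called.

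The subunits of the RFC clamp loader did not move alike. Rfc4 was at 4.35, 8.32, 6.11 and 4.41 CPM at 6.0 mg/kg-day, against 2.72, 2.42, 2.98 and 2.17 CPM in control mice, without overlap, with a log2 fold change of 1.18 ± 0.23 (adjusted p = 0.000711). Exons of Rfc4 share 12.7% of their length with Eif4a2 on the opposite strand, which had a log2 fold change of -0.08. Rfc1, the large subunit, was at 21.9, 23.3, 19.8 and 17.8 CPM at 6.0 mg/kg-day, against 23.9, 22.5, 18.3 and 24.6 CPM in control mice. The groups overlapped, and the log2 fold change was -0.11 ± 0.13 (adjusted p = 0.595). Rfc2, Rfc3 and Rfc5 had log2 fold changes of 0.48, 0.57 and 0.17 with adjusted p of 0.0723, 0.108 and 0.47. Of these, Rfc2 passed the threshold without mouse 23 or control mouse 1 (adjusted p = 0.0154 and 0.0492), and its exons share 15.1% of their length with Lat2 on the opposite strand. With a term for the libraries that stand apart, Rfc2 and Rfc3 were called (0.48 and 0.60, adjusted p = 0.000999 and 0.0182).

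**Figure D3:**
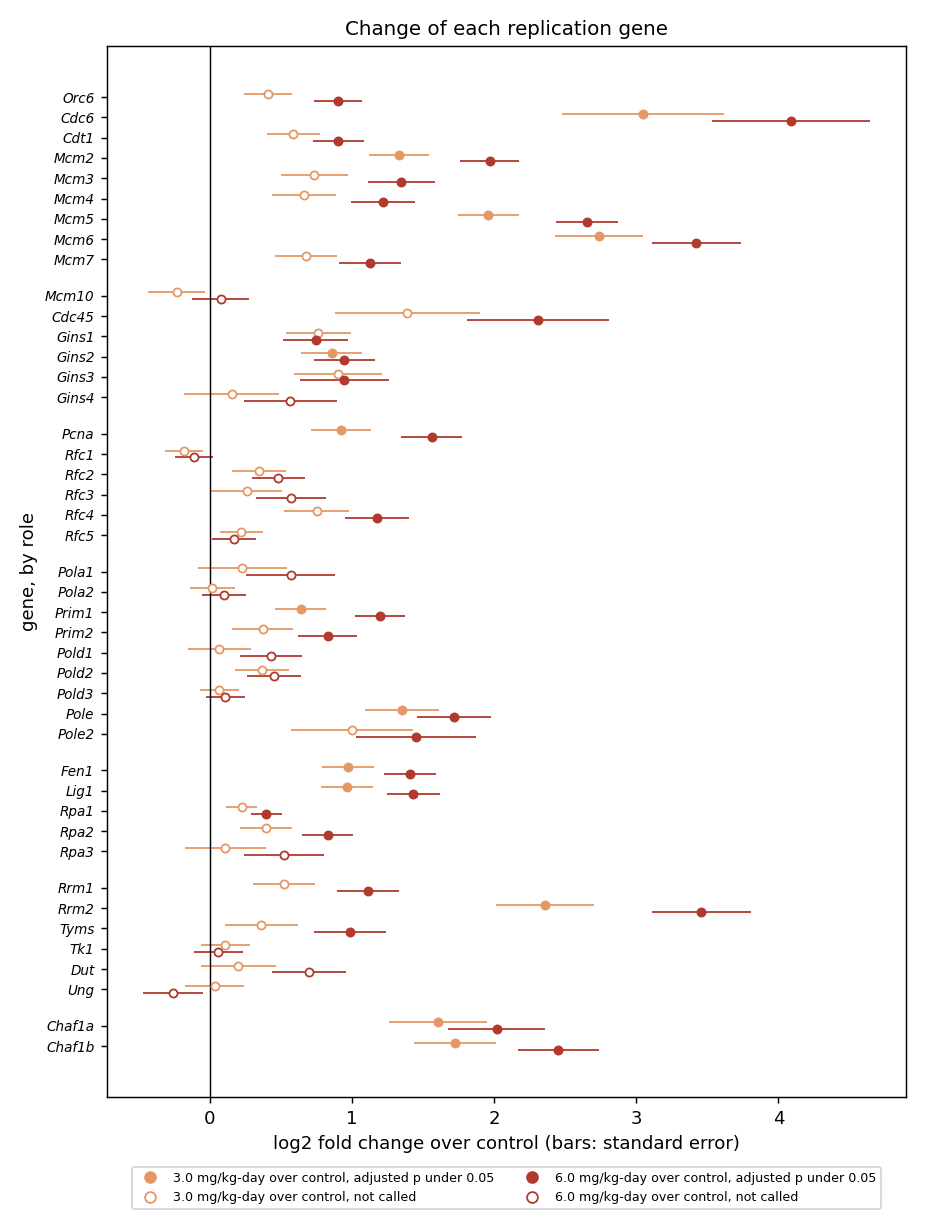
Log2 fold change over control (horizontal axis) of each of the 43 tested genes, in blocks by role, at the doses of 3.0 and of 6.0 mg/kg-day, with bars of 1 standard error; filled points have an adjusted p under 0.05. Cdc6, Rrm2 and Mcm6 lie farthest right at both doses, and for most genes the point at 6.0 mg/kg-day is to the right of the one at 3.0 mg/kg-day, although 0 genes passed the test of that difference.

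Among the polymerase genes, Pole, the catalytic subunit of polymerase epsilon, which extends the leading strand, had the largest change and was at 5.41, 7.86, 7.89 and 4.30 CPM at 6.0 mg/kg-day, against 1.88, 2.02, 2.09 and 1.77 CPM in control mice. No mouse overlapped, and the log2 fold change was 1.72 ± 0.26 (adjusted p = 6.79e-05). In mice at 3.0 mg/kg-day it was at 2.64, 4.92, 6.14 and 6.10 CPM, with a log2 fold change of 1.35 ± 0.26 (adjusted p = 0.00292). At 0.3 mg/kg-day it was at 2.45, 3.42, 3.13 and 3.11 CPM, also above every control, and was not called (0.64, adjusted p = 0.471).

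Pole2, the second subunit of polymerase epsilon, was at 1.06, 2.52, 1.79 and 1.65 CPM at 6.0 mg/kg-day, against 0.642, 1.07, 0.298 and 0.514 CPM in control mice. Mouse 21 lay just below control mouse 2, so the groups overlapped, and the log2 fold change was 1.45 ± 0.42 (adjusted p = 0.0174). The call was lost without mouse 22 (1.22, adjusted p = 0.0745) and without control mouse 3 or 4 (1.24 and 1.35, adjusted p = 0.0535 and 0.0541).

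Primase, which works in one complex with polymerase alpha, makes the RNA primers. Its subunits rose at 6.0 mg/kg-day, Prim1 by 1.20 ± 0.18 (adjusted p = 4.69e-05) and Prim2 by 0.83 ± 0.21 (adjusted p = 0.0069). Prim1 also rose at 3.0 mg/kg-day, by 0.64 ± 0.18 (adjusted p = 0.0424), a call lost without mouse 18, 19 or 20 or control mouse 3 or 4 (adjusted p of 0.0877 to 0.156).

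Pola2, a subunit of polymerase alpha, had the smallest change among the polymerases. Its level was 8.39, 10.7, 7.37 and 8.15 CPM at 6.0 mg/kg-day, against 8.24, 7.93, 6.78 and 9.36 CPM in control mice. The groups overlapped, and the log2 fold change was 0.10 ± 0.16 (adjusted p = 0.693), and -0.02 without mouse 22. Pola1, the catalytic subunit of polymerase alpha, had a log2 fold change of 0.57 (adjusted p = 0.207), and 0.93 without control mouse 3 (adjusted p = 0.0349); it was also called with the term for the libraries that stand apart (0.62, adjusted p = 0.0286) and without those libraries (0.85, adjusted p = 0.019). Neither was any of the 3 listed polymerase delta subunits called: Pold1, Pold2 and Pold3 had log2 fold changes of 0.43, 0.45 and 0.11 with adjusted p of 0.167, 0.0914 and 0.623, and with that term Pold2 was called (0.46, adjusted p = 0.0443). Calls thus differed within the complex of polymerase alpha and primase, and differences between complexes were not tested.

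On the lagging strand, Fen1 trims the primer flap and Lig1 seals the nick. Fen1 was at 9.57, 14.2, 8.41 and 11.8 CPM at 6.0 mg/kg-day, against 4.59, 3.94, 3.80 and 4.22 CPM in control mice. Lig1 was at 6.15, 11.4, 8.87 and 8.87 CPM at 6.0 mg/kg-day, against 3.55, 3.43, 2.98 and 3.08 CPM in control mice. Both lay above every control in all 4 mice. The log2 fold change was 1.41 ± 0.18 for Fen1 and 1.43 ± 0.18 for Lig1 (adjusted p = 9.87e-06 each). Both rose at 3.0 mg/kg-day as well, each by 0.97 ± 0.18 (adjusted p = 0.0021 for Fen1 and 0.00262 for Lig1). Exons of Fen1 share 78.8% of their length with the antisense gene Gm10143, so its reads and those of its partner cannot be told apart.

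RPA coats single-stranded DNA at the fork. Rpa1, its large subunit, was at 38.9, 38.7, 47.6 and 37.1 CPM at 6.0 mg/kg-day, against 31.3, 25.6, 33.9 and 32.4 CPM in control mice. The groups did not overlap, but the shift was small, with a log2 fold change of 0.40 ± 0.11 (adjusted p = 0.0134), and the call was lost without control mouse 2 (0.32, adjusted p = 0.0537). Rpa2 rose by 0.83 ± 0.18 (adjusted p = 0.00209), and Rpa3 had 0.52 ± 0.28 (adjusted p = 0.202), and 0.53 with the term for the libraries that stand apart (adjusted p = 0.0217).

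In nucleotide supply, Rrm2 is the small subunit of ribonucleotide reductase, whose level normally follows S phase and limits the enzyme. It was at 10.0, 21.4, 19.4 and 12.4 CPM at 6.0 mg/kg-day, against 1.23, 1.18, 2.09 and 1.31 CPM in control mice. Mice at 3.0 mg/kg-day were at 4.10, 5.63, 11.8 and 7.89 CPM, and no mouse of either dose overlapped the controls. The log2 fold change was 3.46 ± 0.35 at 6.0 mg/kg-day (adjusted p = 4.56e-07) and 2.36 ± 0.34 at 3.0 mg/kg-day (adjusted p = 0.000179). At 0.3 mg/kg-day it was at 2.61, 1.88, 4.09 and 2.32 CPM and was not called.

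Rrm1, the large subunit of the same enzyme, was at 37.7, 70.4, 42.1 and 28.0 CPM at 6.0 mg/kg-day, against 19.6, 15.7, 26.4 and 20.8 CPM in control mice. The lowest dosed mouse was just above the highest control, and the log2 fold change was 1.11 ± 0.22 (adjusted p = 0.00086), or 0.80 without mouse 22. At 3.0 mg/kg-day it was not called, with 0.52 ± 0.22 (adjusted p = 0.242).

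Tk1, the cytosolic thymidine kinase of the salvage pathway and elsewhere a common marker of S phase, did not follow. It was at 20.9, 19.7, 20.6 and 24.0 CPM at 6.0 mg/kg-day, against 16.7, 16.6, 23.3 and 25.2 CPM in control mice. The 4 dosed mice lay inside the range of the controls, and the log2 fold change was 0.06 ± 0.17 (adjusted p = 0.84); its sign turned without mouse 24 or control mouse 1 or 2. The value at 3.0 mg/kg-day was 0.11 ± 0.17 (adjusted p = 0.874). Exons of Tk1 share 1.60% of their length with Afmid on the opposite strand, and Afmid rose by 0.66 on the log2 scale. Thymidylate synthase (Tyms), which makes thymidylate anew, rose by 0.98 ± 0.25 (adjusted p = 0.00761). Dut, which clears dUTP, had 0.70 ± 0.26 (adjusted p = 0.0592), and 0.84 without mouse 23 (adjusted p = 0.0221), 0.72 with the term for the libraries that stand apart (adjusted p = 0.00267) and 0.65 without those libraries (adjusted p = 0.0129). Ung, which removes uracil from DNA, had -0.26 ± 0.21 (adjusted p = 0.41).

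Chromatin assembly factor 1 places histones on new DNA. Chaf1a was at 1.74, 2.77, 2.77 and 2.75 CPM at 6.0 mg/kg-day, against 0.395, 0.562, 0.671 and 0.856 CPM in control mice. Chaf1b was at 4.29, 6.91, 3.92 and 7.88 CPM at 6.0 mg/kg-day, against 0.889, 1.18, 1.04 and 1.08 CPM in control mice. Neither gene overlapped the controls. In log2 fold change this was 2.02 ± 0.34 for Chaf1a (adjusted p = 0.000199) and 2.45 ± 0.29 for Chaf1b (adjusted p = 2.88e-06). Both also rose at 3.0 mg/kg-day, by 1.60 ± 0.34 and 1.72 ± 0.29 (adjusted p = 0.00669 and 0.000733). Ubxn6 overlaps 52.5% of the Chaf1a exon length on the opposite strand and had a log2 fold change of 0.40 (adjusted p = 0.163).

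Levels per exon length (RPKM, here CPM per kilobase of annotated exon) show how subunits of a complex stood to each other. In the MCM ring, whose subunits are needed in equal numbers, Mcm6 averaged 2.95 RPKM and Mcm7 4.93 RPKM at 6.0 mg/kg-day, against 0.269 and 2.25 RPKM in control mice. The highest of the 6 subunits exceeded the lowest by a factor of 2.26 to 3.32 in the mice at 6.0 mg/kg-day, against 5.27 to 14.5 in control mice, so the RNA levels of the subunits lay closer together at the high dose. In ribonucleotide reductase, the ratio of Rrm2 to Rrm1 in RPKM was 1.05, 1.21, 1.83 and 1.76 in the mice at 6.0 mg/kg-day, against 0.250, 0.299, 0.314 and 0.251 in control mice. The ratio was thus higher in every mouse at 6.0 mg/kg-day than in every control. By RPKM Rrm2 was the lower of the pair in every control and the higher in every mouse at that dose. In CPM Rrm1 was the higher of the pair in all of these mice. Which of the pair is higher thus depends on the exon lengths used, 11012 bases for Rrm1 and 2771 bases for Rrm2. These ratios rest on exon lengths of the reference annotation, while the sources used here do not give the counting rules.

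The genes that were not called at 6.0 mg/kg-day stood higher in control livers than those that rose. Their control level had a median of 2.41 RPKM over 15 genes, against 0.751 RPKM over the 28 genes that rose, and 12 of the 15 were above the median of all 43. Of the 28 genes that rose, 9 were above that median too. Pcna and Rpa1 were the highest of those, with 6.84 and 5.53 RPKM in control mice. The control level is also part of each fold change. This relation is a description across genes, which are not independent replicates, and it was not tested.

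**Figure D4:**
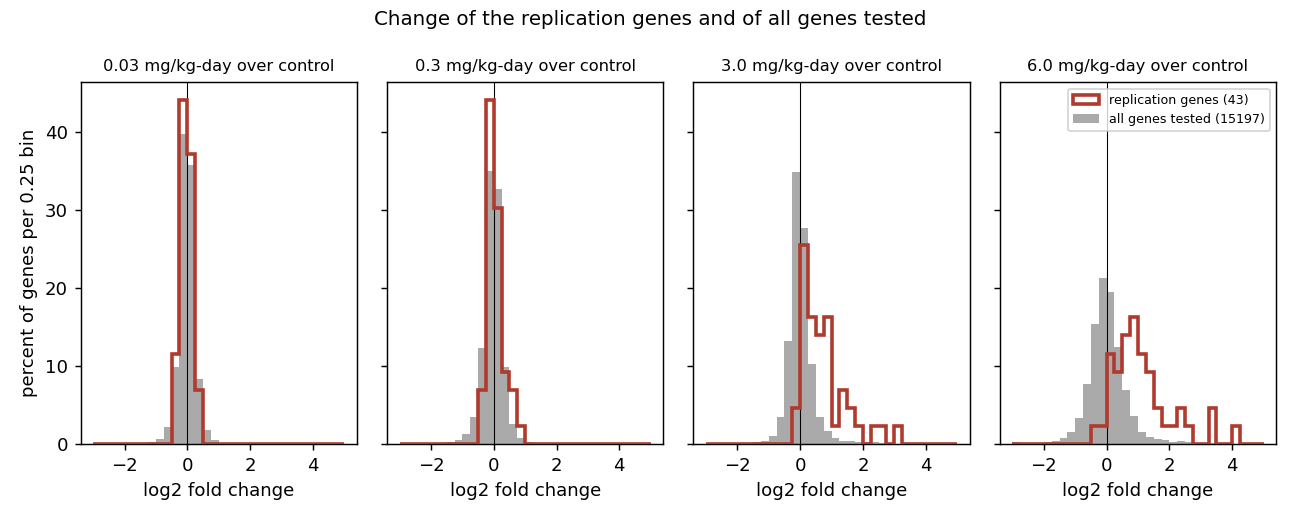
Share of genes (vertical axis, percent per bin of 0.25) by log2 fold change over control (horizontal axis) at each dose, for the 43 replication genes (red outline) and all 15197 rows tested (grey); values beyond the axis are counted in the end bins. The red outline and the grey area largely overlap at 0.03 and 0.3 mg/kg-day, and the red one is shifted to the right at the 2 highest doses, with medians of 0.59 and 0.94.

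Set directly against each other, the 2 highest doses gave 0 calls among the 43 genes by edgeR, where 1.03% of all rows were higher at 6.0 mg/kg-day and 1.06% lower. The median log2 difference, 6.0 minus 3.0 mg/kg-day, was 0.43, against 0.0045 over all rows, and 39 of the 43 values were positive (90.7%), as were 50.6% over all rows. An unadjusted p under 0.05 was found for 18 of the 43 (41.9%) and for 15.2% of all rows. DESeq2 called 4 of the genes higher and limma-voom 2, where they called 355 and 186 of all rows higher. With edgeR, 3 genes were called higher without mouse 23, 2 without mouse 20, and 1 without mouse 19 or mouse 21. Over all rows, edgeR called 401 higher without mouse 23, 152 without mouse 20, 156 without mouse 19 and 187 without mouse 21. With all mice it called 157 rows higher. The nearest to a call were Rrm2 at 1.10 ± 0.30 (adjusted p = 0.0596) and Mcm5 at 0.69 ± 0.20 (adjusted p = 0.0699), both singled out after their values were seen. As a slope over the rank of the 5 doses, 32 genes rose and 0 fell, where 13.7% of all rows rose and 12.7% fell. The 4 genes called by the slope and not at 6.0 mg/kg-day alone were Rfc2, Rfc3, Pold2 and Dut.

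Mouse 22 had the highest level of its group for 23 of the 28 genes called at that dose, with a median ratio of 1.52 to the mean of the other 3 mice. The summed level of the 44 genes was 658 CPM in mouse 22 and 463, 486 and 478 CPM in mice 21, 23 and 24, against 271 to 310 CPM in control mice. Without it, 25 genes rose, the median log2 fold change was 0.77, and the 3 calls lost were Gins1, Gins3 and Pole2. In 26 of the 28 genes the other 3 mice all lay above every control. Those 28 genes were called with these same mice, and the count over all rows was not made, so this is a description.

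The summed level of the 8 T and NK cell markers was 122 CPM in mouse 22 and 4.54, 9.04 and 3.14 CPM in mice 21, 23 and 24, against 3.06 to 6.35 CPM in control mice. Most of that sum was Lck, a kinase of the T cell receptor pathway, with 87.7 CPM in mouse 22 and 0.820 to 2.53 CPM in control mice, and the CD3 chains Cd3e, Cd3g and Cd3d were at 10.3, 14.1 and 6.65 CPM in mouse 22. Cd8a, Nkg7 and Klrb1c were at 0.252, 0.252 and 0.202 CPM there, within the range of the other mice. The part of T cells in the replication gene levels of mouse 22 was not tested. At 3.0 mg/kg-day the summed T and NK cell markers were 3.59 to 6.09 CPM, against 3.06 to 6.35 CPM in control mice. Only 4 of the 8 markers passed the filter on low counts, and the part of T cells at that dose was not tested. Of the hepatocyte markers, 5 of 8 were lower at 6.0 mg/kg-day (median log2 fold change of -0.60), where 11.2% of all rows fell. Their sums were 83984 to 116327 CPM, against 136074 to 183317 CPM in control mice. Most of each sum was Alb, at 61697 to 88901 CPM, against 101617 to 145316 CPM in control mice. Apoa1, Apob, Ttr and Hnf4a overlapped the controls. The part of hepatocytes was not tested either. Kupffer cell markers summed to 229 to 495 CPM at 6.0 mg/kg-day, with mouse 22 highest, against 295 to 353 CPM in control mice. Among them 0 of 8 rose and 2 fell, where 11.2% of all rows rose and 11.2% fell.

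The summed level of the neutrophil and monocyte markers was higher in all 4 mice at 6.0 mg/kg-day. It was 11.5, 29.4, 10.7 and 8.70 CPM, against 3.82 to 5.81 CPM in control mice. Mice at 3.0 mg/kg-day had sums of 5.39 to 7.44 CPM. Of the 8 listed, 4 were tested, with a median log2 fold change of 1.26 at 6.0 mg/kg-day. At that dose 1 rose and 0 fell, where 11.2% of all rows rose and 11.2% fell. The one that rose was S100a8, an alarmin of neutrophils and monocytes, at 4.35, 15.0, 3.97 and 4.74 CPM at 6.0 mg/kg-day, against 0.494, 0.619, 0.0745 and 0.514 CPM in control mice (log2 fold change of 3.97, adjusted p = 5.90e-06). Mpo, a granule enzyme of these cells, lay between 0 and 0.302 CPM at 6.0 mg/kg-day, against 0 to 0.0494 CPM in control mice. Only S100a8 and Elane of the list lay above every control in all 4 mice. Elane was at 0.0576 to 0.403 CPM there, against 0 CPM in control mice. S100a9 was at 0.373, 0.806 and 0.165 CPM in mice 21, 23 and 24, against 0.298 to 0.889 CPM in control mice. Ly6g was at 0, 0 and 0.0551 CPM in these mice, against 0.0571 to 0.169 CPM in control mice. Mouse 22 had 7.16 CPM of S100a9 and 0.907 CPM of Ly6g. Outside mouse 22, S100a9 and Ly6g thus did not share the higher sums. The part of these cells in the replication gene levels was not tested.

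**Figure D5:**
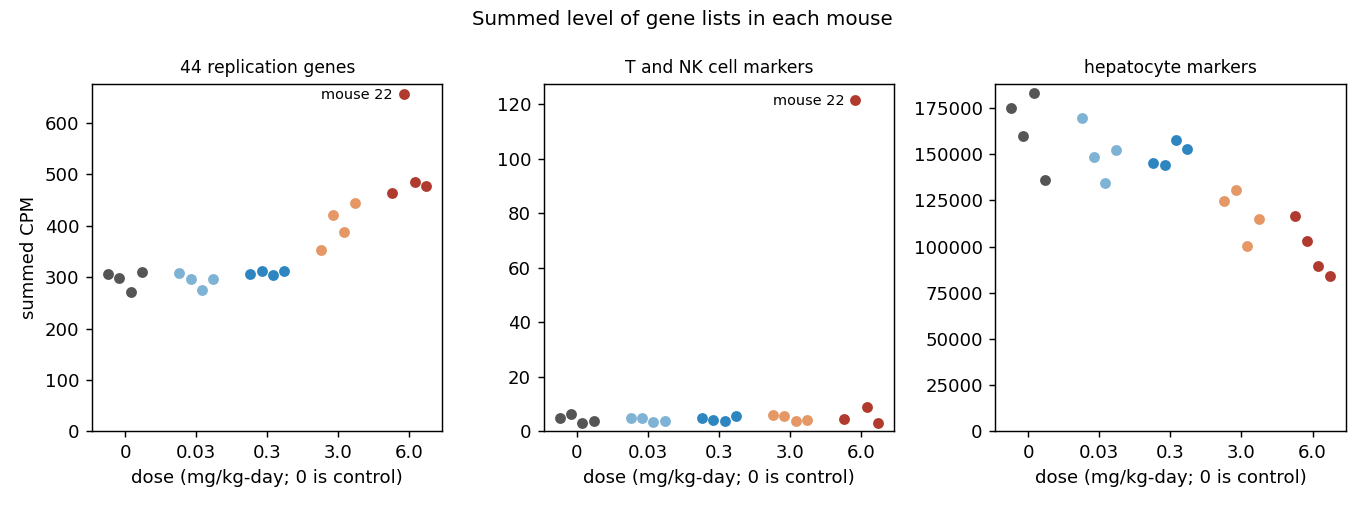
Summed CPM (vertical axes, linear from 0) of the 44 replication genes, the 8 T and NK cell markers and the 8 hepatocyte markers in each mouse (points) by dose in mg/kg-day. Mouse 22 is highest for the first 2 lists, the other mice of the 2 highest doses exceed all controls for the replication genes but not for the T and NK cell markers apart from mouse 23, and the hepatocyte sums are lower at the 2 highest doses.

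A second list of 55 genes for replication, outside the 44, gave the surroundings of these results, and 54 were tested (Dscc1 was not). It was also chosen with earlier results of these data known. At 6.0 mg/kg-day 24 rose and 1 fell, where 11.2% of all rows rose and 11.2% fell, and the median log2 fold change was 0.45. At 3.0 mg/kg-day 10 rose and 0 fell, where 3.18% of all rows rose and 1.43% fell. Of the 54, 5 (Cdc7, Recql4, Ticrr, Clspn and Chtf18) passed the filter on low counts only through the 2 highest doses; without them, at 6.0 mg/kg-day 20 of 49 rose, 1 fell and the median was 0.40, and at 3.0 mg/kg-day 9 rose. By subgroup at 6.0 mg/kg-day, 7 of 8 genes for chromatin duplication rose, as did 7 of 18 other fork genes, 5 of 13 other licensing and firing genes, 3 of 7 other nucleotide genes and 2 of 8 checkpoint genes. The gene that fell, named after its value was seen, was Samhd1, which breaks down deoxynucleotides, by 0.49 on the log2 scale (adjusted p = 0.00898). Without mouse 22, 18 rose and 1 fell, while over all rows 1263 rose and 1083 fell.

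The largest changes in that list were those of Esco2, an acetyltransferase for sister chromatid cohesion, and Top2a, the topoisomerase that untangles copied DNA. Esco2 was at 13.6, 15.9, 15.4 and 11.1 CPM at 6.0 mg/kg-day, against 0.741, 0.619, 1.27 and 0.285 CPM in control mice, with a log2 fold change of 4.29 ± 0.35 (adjusted p = 3.88e-08). Top2a was at 28.3, 106, 32.8 and 27.4 CPM at 6.0 mg/kg-day, against 3.31, 2.81, 2.98 and 2.74 CPM in control mice. No mouse overlapped for either gene. The log2 fold change of Top2a was 4.03 ± 0.38 (adjusted p = 2.24e-07) and 3.31 without mouse 22. It was the only gene of both lists called between the 2 highest doses, with a log2 fold change of 1.46 ± 0.33, 6.0 over 3.0 mg/kg-day (adjusted p = 0.0243), and the call was lost without mouse 22 (0.74, adjusted p = 0.084).

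Asf1b, a histone chaperone, Clspn, an adaptor of the checkpoint at the fork, and Uhrf1, which directs maintenance methylation to new DNA, rose by 3.52 ± 0.56, 3.49 ± 0.47 and 3.34 ± 0.37 on the log2 scale (adjusted p = 9.88e-05, 1.58e-05 and 1.35e-06). Clspn could enter the test only by being higher at the 2 highest doses, so its value is a description. At the other end, Mcmbp, Rad17, Hus1, Donson and Chtf8 had log2 fold changes of -0.01, 0.02, -0.02, 0.03 and -0.05 with adjusted p of 0.841 to 0.97. Their levels in control mice were 26.1 to 27.9 CPM for Mcmbp, 11.8 to 22.7 CPM for Rad17, 9.53 to 16.3 CPM for Hus1, 3.11 to 4.40 CPM for Donson and 21.7 to 30.9 CPM for Chtf8. Rrm2b, the p53-controlled form of the small reductase subunit, was at 3.48, 4.34, 3.92 and 4.13 CPM at 6.0 mg/kg-day, against 3.21, 2.92, 4.25 and 3.65 CPM in control mice. The groups overlapped, and its log2 fold change was 0.18 ± 0.18 (adjusted p = 0.509), beside the 3.46 of Rrm2.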

How the data were processed

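RNA of 20 livers, 4 individual mice in each of 5 groups, was measured; the 80 sample labels are 4 lanes of each library, and the table has 1 column per library, mapped to its group. The authors deposited expected counts per gene (58.0% of values are whole). Per the submitters' processing notes, Partek and build GRCm38.p5 were used; the version, aligner, counting rules, annotation and strand were not stated in the sources used here. The members and lists were chosen with earlier results of these data known.

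Expected counts were rounded, rows with low counts were left out by filterByExpr (6906 of 22103), libraries were scaled by TMM, and 1 model of all 20 libraries was fitted with edgeR 4.0.16 in R 4.3.3 (quasi-likelihood test, common biological coefficient of variation 0.219, 15 residual degrees of freedom). Adjustment of p-values ran over all 15197 rows tested (Benjamini-Hochberg, threshold 0.05), and standard errors are the fold change over the square root of F. Libraries held 13086779 to 21467012 expected counts. CPM use the rounded counts and scaled library sizes, and RPKM is CPM per kilobase of exon from GENCODE M21 on GRCm38. The fit was tested on simulated counts.

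Genes given with per-mouse values are, by rule, in each role the 2 largest and the smallest change at 6.0 mg/kg-day, plus Mcm2, Mcm6, Pcna, Rrm2 and Tk1, and in the second list the 5 largest and 5 smallest, plus Rrm2b. Orc1, which was not tested, was added; the remaining members are given by fold change. Alternatives were DESeq2 1.42.0, limma-voom (limma 3.58.1), DESeq2-type size factors, no filter, a fit of only the groups compared, and leaving out each mouse. A term for the 5 libraries that stand apart, leaving those libraries out, and leaving mouse 22 out for the second gene list were chosen after seeing the data. The 5 libraries were found from the same counts that the term adjusts, so counts of calls and adjusted p with it are descriptions. Promoters are RefSeq windows, and exon overlaps come from GENCODE M21.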

Additional observations from a re-analysis of the deposited data

Results flagged for a closer look

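Single genes and summed levels, each in the same 5 groups of 4 mice, gave 115 sets of values. In 10 of the 115 (8.70%) a mouse's distance to its nearest neighbour, as a share of the group's range, exceeded Dixon's critical value. Chance gives about 1 in 20, but the sets share mice and are not independent. Mouse 22, at 6.0 mg/kg-day, accounted for 3 of the 10. It had 6.10 CPM of Cdc6, where the other mice of its group had 2.59 to 2.98 CPM. The summed level of the 44 replication genes was 658 CPM in mouse 22, and 463 to 486 CPM in the other mice. Its summed T and NK cell markers were 122 CPM, and 3.14 to 9.04 CPM in the other mice.

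Also at 6.0 mg/kg-day, mouse 24 had 47.4 CPM of Mcm10 (27.4 to 29.8 CPM in the others). Mouse 23 had 47.6 CPM of Rpa1 (37.1 to 38.9 CPM in the others). Mouse 21 had 1.74 CPM of Chaf1a (2.75 to 2.77 CPM in the others).

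The rest concern libraries that stand apart from their group. Rfc1 was at 18.2 CPM in mouse 15 at 0.3 mg/kg-day (22.8 to 23.3 CPM in the others) and at 16.8 CPM in mouse 19 at 3.0 mg/kg-day (20.6 to 21.0 CPM in the others). Chaf1b was at 1.54 CPM in mouse 15 (1.01 to 1.06 CPM in the others). Rrm2 was at 2.09 CPM in control mouse 3 (1.18 to 1.31 CPM in the others).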

How the results depend on the processing

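At 6.0 mg/kg-day the number of replication genes called higher was 25 to 31 when 1 mouse was left out, 28 with DESeq2-type size factors or limma-voom, 29 without the filter, 30 with DESeq2, 35 with a term for the libraries that stand apart, 32 without those libraries and 24 in a fit of the 2 groups alone; at 3.0 mg/kg-day it was 11 to 15 with 1 mouse left out. The count at 3.0 mg/kg-day was 20 with that term, and included the 13; over all rows the term gave 849 higher at 3.0 and 2800 at 6.0 mg/kg-day, against 483 and 1707. Between the 2 highest doses it was 0 to 3 with 1 mouse left out, 4 with DESeq2, 2 with limma-voom, 6 with that term and 3 without those libraries, beside 0 in edgeR, while all rows called higher there were 700 with the term and 689 without those libraries, against 157. With 1 mouse left out, all rows called higher there were 52 to 401. The median log2 fold change at 0.3 mg/kg-day ranged from -0.048 to 0.074 with 1 mouse left out. The signs that turned, all of genes not called at 6.0 mg/kg-day, were those of Mcm10 (-0.04 without control mouse 3 and -0.14 without mouse 24), Pola2 (-0.021 without mouse 22) and Tk1 (-0.027 and -0.028 without control mouse 1 or 2, and -0.00222 without mouse 24); with 1 mouse left out, their highest values were 0.16 for Mcm10, 0.18 for Pola2 and 0.17 for Tk1, and the cause was not tested. Of the other values of single genes, 788 kept direction and call, 29 lost the call and 17 gained one. These values cover all 43 tested genes at 6.0 mg/kg-day but only the 13 called genes at 3.0 mg/kg-day. Calls gained at 3.0 mg/kg-day are therefore not among the 17. In the fit of 2 groups alone, Gins1, Gins3, Prim2 and Rpa1 were not called (adjusted p of 0.0539 to 0.111). Over all rows, calls at 6.0 mg/kg-day were 996 higher and 730 lower in that fit and 1263 and 1083 without mouse 22, against 1707 and 1698 with all libraries. At 0.3 mg/kg-day DESeq2 called 99 rows higher and 87 lower, against 21 and 23 by edgeR.

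Low counts limit Orc1, Cdc6, Chaf1a, Pole2, Gins3 and Cdc45, whose control levels rest on 8 to 58 counts over 4 mice. No paired analysis was possible because no replicate number occurs in more than 1 group.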
